A study of Ascodesmis nigricans with 6 samples.

Results

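The sexual mycelium-specific genes of Ascodesmis nigricans are gene models whose transcript levels were far higher in total sexual mycelium than in both protoapothecia and vegetative mycelium. Genes were selected on their levels in CPM, counts per 1000000 counts of a library: a gene belonged to the set when both sexual libraries had at least 10 CPM and the lower of them was at least 10 times the highest of the 4 other libraries. Of 9622 gene models, 57 met this rule, which is 0.592% of all models and 0.876% of the 6503 models at 10 CPM or more in both sexual libraries. The levels in sexual mycelium against the other tissues therefore chose the genes and are given as a description, with no test. The difference between protoapothecia and vegetative mycelium was not used by the rule, which caps both tissues alike, and was tested.

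RNA sequencing covered 3 tissues of strain CBS 389.68 with 2 independent biological replicates each: total sexual mycelium, protoapothecia isolated by laser microdissection, and total vegetative mycelium. All 3 carried the same strain with no further genotype or treatment in the labels, and all were described with 1 protocol of 3 days at 25 °C on microscope slides with a thin layer of rabbit food medium, ethanol fixation and linear amplification of RNA. What made a culture sexual or vegetative is not given in the labels, so what else differed between these cultures is not known. The protocol text does not separate the microdissected samples from the total mycelium in amplification. Only protoapothecia were microdissected, so in comparisons with them effects of tissue and of collection cannot be told apart. Library totals ranged from 11589777 to 12835772 counts. The sexual libraries stood apart in scaling, where the factors of trimmed mean of M-values (TMM) scaling were 1.32 and 1.41 against 0.895 and 0.872 in protoapothecia and 0.840 and 0.819 in vegetative mycelium.

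Ascodesmis is a cup fungus, an ascomycete whose apothecia are open fruiting bodies that bear the spore sacs on an exposed surface. In such fungi, fruiting starts when female initials, the ascogonia, form on the mycelium and become wrapped by sterile hyphae, which gives the protoapothecium. Total sexual mycelium can therefore hold vegetative hyphae, early sexual structures and young fruiting bodies together, and in such bulk samples a change in the number of cells of a type and a change of RNA per cell cannot be told apart. The deposited models are listed by protein identifier alone, so no role is given for any gene, and no marker gene could be used to check the tissue labels.

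The share of library counts held by the 57 genes was 4.86% and 3.19% in sexual mycelium, against 0.0253% and 0.0335% in protoapothecia and 0.0245% and 0.0375% in vegetative mycelium. Most of the sexual share came from 1 gene, proteinId190317, which supplied 71.8% and 59.5% of the counts of the set in the sexual libraries. Without it, the other 56 genes summed to 13730 and 12940 CPM in sexual mycelium, 227.8 and 279.7 CPM in protoapothecia, and 244.5 and 374.7 CPM in vegetative mycelium. The sums of the protoapothecia and the vegetative libraries overlapped. Different genes led it, with proteinId340458 at 19.0% and 20.4% of the counts of the set in protoapothecia, and proteinId131171 at 36.5% and 52.3% in vegetative mycelium.

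**Figure D1:**
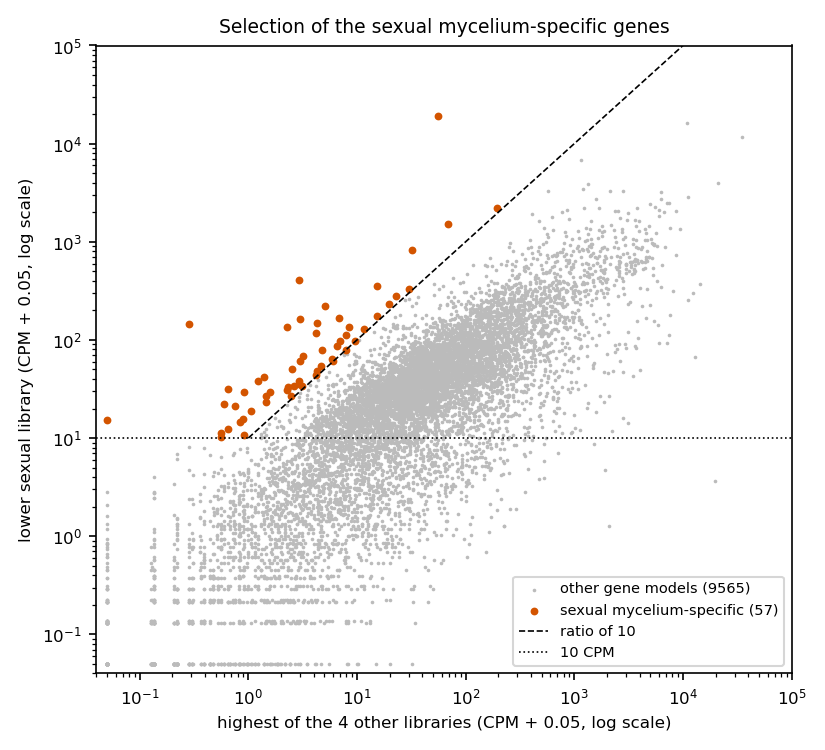
Each point is 1 gene model, with the highest of the 4 other libraries on the horizontal axis and the lower sexual library on the vertical axis (CPM + 0.05, both log scales). The dashed line marks the ratio of 10 and the dotted line 10 CPM; the 57 orange points above both lines are the sexual mycelium-specific genes, and proteinId190317 is the highest of them at 18970 CPM in its lower sexual library.

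The rule applied with the tissues exchanged found 215 protoapothecia-specific and 9 vegetative mycelium-specific genes. These numbers depended on the scaling: with TMM-scaled CPM there were 29 sexual mycelium-specific, 341 protoapothecia-specific and 13 vegetative mycelium-specific genes. All 29 were among the 57. With a single sexual library in the rule the set was larger, at 114 genes without sexual replicate 1 and 100 without sexual replicate 2. The order of the 3 numbers was the same on the raw, the TMM and the RLE (median-of-ratios) scale.

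Within the set, the ratio of the lower sexual library to the highest other library had a median of 18.4 and reached 622 among genes with a count elsewhere. It was under 20 in 32 genes and at least 100, or without any count elsewhere, in 4. The highest other library was a protoapothecia library for 29 genes and a vegetative one for 27, and 1 gene had no count in any of the 4. On the TMM scale the ratios were smaller, with a median of 11.6 and a lowest value of 5.95.

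The highest ratio belonged to proteinId342167, a short model with an mRNA of 477 bases. It had 1922 and 1802 counts in sexual mycelium, 2 and 2 in protoapothecia, and 1 and 3 in vegetative mycelium. Its sexual replicates were close, at 165.8 and 145.3 CPM, and its counts elsewhere were near the limit of detection in every library. The next, proteinId190317, with an mRNA of 676 bases, was the most abundant of the set at 34880 and 18970 CPM in sexual mycelium, 24.8 and 55.2 CPM in protoapothecia, and 0.771 and 0.545 CPM in vegetative mycelium. For proteinId387349 the levels were 411.8 and 470.3 CPM in sexual mycelium, 2.80 and 0.316 CPM in protoapothecia, and 2.49 and 2.88 CPM in vegetative mycelium, so that its lower sexual library was 143 times its highest other one. The fourth, proteinId341411, had 134.4 and 343.7 CPM in sexual mycelium, 0.848 and 2.21 CPM in protoapothecia, and 0.0857 and 0.156 CPM in vegetative mycelium.

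One gene, proteinId297202, was counted in sexual mycelium only. It had 336 and 187 counts in the sexual libraries, which are 29.0 and 15.1 CPM, and 0 counts in all 4 others. With a floor of 3 counts per library its lower sexual library was at least 58.6-fold above the others, a bound that covers counting error only. Its mRNA of 216 bases is the shortest of the set, and no other model at 10 CPM or more in both sexual libraries was at 0 in the 4 other libraries.

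The genes nearest the threshold on the inside were proteinId210836, with a ratio of 10.1, and proteinId363640, with 10.2. The first had 79.5 and 80.0 CPM in sexual mycelium, 4.15 and 2.44 CPM in protoapothecia, and 7.88 and 7.79 CPM in vegetative mycelium. The second had 129 and 96.9 CPM in sexual mycelium, 9.50 and 1.34 CPM in protoapothecia, and 8.74 and 7.40 CPM in vegetative mycelium. Just outside were proteinId363575, with 21.5 and 22.8 CPM in sexual mycelium, 2.20 and 2.21 CPM in protoapothecia, and 1.80 and 1.48 CPM in vegetative mycelium, and proteinId342013, with 254.9 and 100.4 CPM in sexual mycelium, 10.3 and 8.28 CPM in protoapothecia, and 1.37 and 3.04 CPM in vegetative mycelium. A further 103 models besides these 2 had both sexual libraries at 10 CPM or more and a ratio of 5 to 10.

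**Figure D2:**
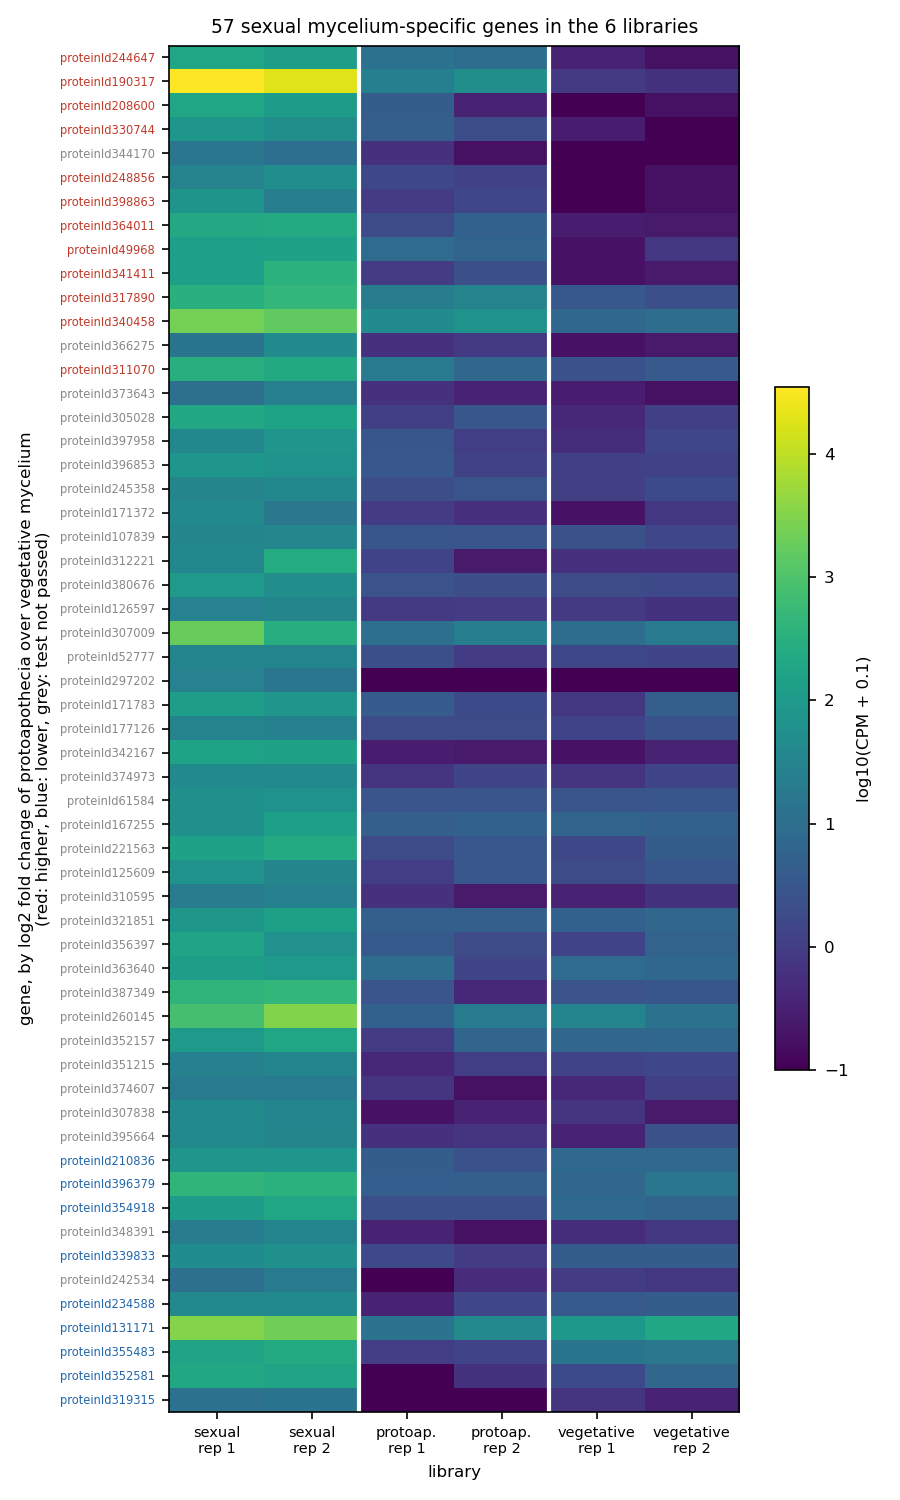
Level of each of the 57 genes in the 6 libraries as log10(CPM + 0.1), with the genes ordered by the fitted log2 fold change of protoapothecia over vegetative mycelium. The sexual columns are bright for every gene by the rule. The 12 genes with red names were higher and the 9 with blue names lower in protoapothecia than in vegetative mycelium. The 36 with grey names did not pass the test. Among the red and blue names, proteinId208600 and proteinId319315 were tested only because of their sexual counts.

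Levels were then ordered per length, as TMM-scaled CPM per kilobase of mRNA (mean ± SD, n = 2). In sexual mycelium the set had a median of 43.3, against 25.1 for the 6503 models at 10 CPM or more in both sexual libraries. Of the 57 genes, 41 lay above 25.1. The rule chose the genes on their sexual levels, and levels per length also depend on mRNA length, so nothing is read from this. The top gene, proteinId190317, reached 29530 ± 13670. Next came proteinId340458 at 2611 ± 1007, proteinId307009 at 1140 ± 1213, proteinId131171 at 1134 ± 371, proteinId260145 at 567 ± 451 and proteinId396379 at 351 ± 60.3. The first stood above the others by more than its spread, whereas each neighbouring pair among the other 5 overlapped within 1 SD. The set included 4 of the 100 models with the most counts in each sexual library and none of the 100 in any of the other libraries. The rule caps the genes in the other libraries, so nothing is read from this difference.

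The abundant genes differed in how they fell off outside sexual mycelium. For proteinId340458 the levels were 2476 and 1519 CPM in sexual mycelium, 48.0 and 68.4 CPM in protoapothecia, and 7.28 and 9.51 CPM in vegetative mycelium. For proteinId131171 they were 3291 and 2206 CPM in sexual mycelium, 12.9 and 40.9 CPM in protoapothecia, and 89.6 and 196.1 CPM in vegetative mycelium. The first was higher in protoapothecia and the second in vegetative mycelium, with no overlap between the groups in either gene. Such a lack of overlap was common. Over all genes tested, both protoapothecia libraries were above both vegetative ones in 47.7% and below them in 41.7%. For proteinId396379 the levels were 419.1 and 352.5 CPM in sexual mycelium, 4.41 and 4.65 CPM in protoapothecia, and 6.77 and 15.1 CPM in vegetative mycelium, also without overlap. The differences of proteinId131171 and proteinId396379 between these 2 tissues weakened when vegetative replicate 2 was left out, as given below.

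The sexual replicates differed by more than 2-fold in raw CPM for 12 of the 57 genes (21.1%), against 657 of the 6503 models at 10 CPM or more (10.1%). The median absolute log2 ratio between the sexual replicates was 0.52 in the set and 0.34 in those 6503 models. The rule used these same libraries, and the 6503 models were not matched to the set in level or length. Nothing is therefore read from these shares and medians. The largest differences went both ways. In proteinId307009 replicate 1 was at 1839 CPM and replicate 2 at 278.9 CPM, with 10.4 and 22.9 CPM in protoapothecia and 9.51 and 18.6 CPM in vegetative mycelium. The gene proteinId398863 was at 72.0 and 23.4 CPM in sexual mycelium. In the opposite direction, proteinId312221 was at 37.9 CPM in replicate 1 and 262.1 CPM in replicate 2, and proteinId260145 at 826.9 and 3168 CPM. Each of these 4 genes met the rule through its lower sexual library, so their mean levels rest mainly on 1 library each.

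**Figure D3:**
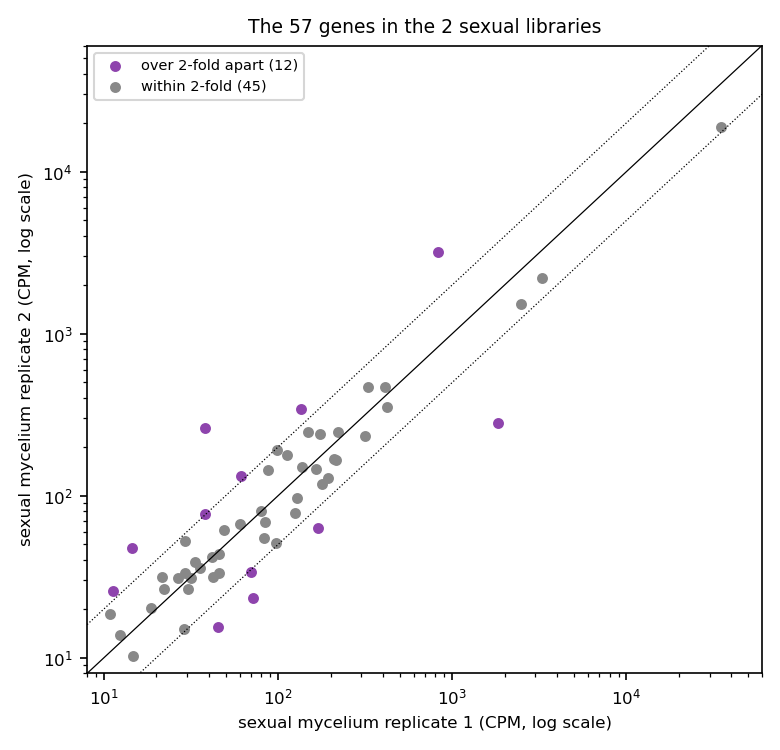
Level of the 57 genes in sexual mycelium replicate 1 (horizontal) and replicate 2 (vertical), in CPM on log scales. The solid line marks equal levels and the dotted lines a 2-fold difference; the 12 purple genes lie outside them, on both sides, and the 45 grey genes inside.

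The comparison of protoapothecia with vegetative mycelium asks whether genes that are low in both tissues relative to sexual mycelium are equally low in the 2. Of the 57 genes, 12 (21.1%) were higher in protoapothecia, 9 (15.8%) were lower and the other 36 did not pass (edgeR's quasi-likelihood test on all 6 libraries, Benjamini-Hochberg adjusted p under 0.05 over 8861 genes). Over all genes tested, 39.8% were higher and 35.3% lower, 75.1% in all, and the called share of the set was 36.8%. The rule keeps these 2 tissues low, at medians of 2.24 TMM-scaled CPM in protoapothecia and 1.57 in vegetative mycelium against 14.9 and 14.6 over all models, so nothing is read from the difference between these shares. In the set, 36 genes averaged 20 counts or more in one of these tissues, and 17 of them (47.2%) were called, against 77.4% of the 8335 models tested with such a mean. Both protoapothecia libraries were above both vegetative ones in 19 genes of the set and below them in 15, where the shares over all tested genes were 47.7% and 41.7%. The median log2 fold change was -0.08 in the set and 0.15 over all genes tested. It was 0.27 in the set and 0.26 over all genes tested without vegetative replicate 2, so neither the sign of the median of the set nor the order of the 2 medians held. All 57 genes passed the filter on low counts, but 16 of them only through the sexual libraries, where the rule makes them high. These 16 include 1 of the 12 higher genes, proteinId208600, and 1 of the 9 lower genes, proteinId319315. A fit of the protoapothecia and vegetative libraries alone could test the other 41 and called 19 of them. That fit called 77.6% of all genes it tested, and nothing is read from the difference.

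The 12 genes that were higher in protoapothecia had a median level of 6.03 TMM-scaled CPM there, with a range of 1.29 to 66.0. In vegetative mycelium their median was 0.199, with a range of 0.0476 to 10.1. The libraries of the 2 tissues did not overlap in any of the 12. Over all genes tested, both protoapothecia libraries were above both vegetative ones in 47.7%, so nothing is read from this. The largest fold change was that of proteinId244647, with 2236 and 1597 counts in sexual mycelium, 136 and 125 in protoapothecia, and 3 and 1 in vegetative mycelium. It was 61.3-fold higher in protoapothecia (95% exact counting interval 23.7 to 226.8; fitted log2 fold change 5.87 ± 0.52 SE, edgeR adjusted p = 8.29e-05), and the log2 value was 6.84 without vegetative replicate 1 and 5.25 without vegetative replicate 2. The gene proteinId190317 had 293 and 700 counts in protoapothecia against 9 and 7 in vegetative mycelium, a 58.3-fold difference (counting interval 35.7 to 102.5; log2 fold change 5.83 ± 0.62 SE, edgeR adjusted p = 0.000184; 5.11 without protoapothecia replicate 2). Its level in protoapothecia remained far under that in sexual mycelium, at 404271 and 235318 counts. The counting intervals here and below cover counting error only and leave out the spread between libraries.

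Further genes of this kind rested on very few vegetative counts. The gene proteinId208600 had 2063 and 1468 counts in sexual mycelium, 49 and 3 in protoapothecia, and 0 and 1 in vegetative mycelium. It was tested only because of its sexual counts. The ratio of protoapothecia to vegetative mycelium was 48.9 with a counting interval of 8.39 to 1967 (log2 fold change 5.37 ± 1.73 SE, edgeR adjusted p = 0.0258). Its call was lost without protoapothecia replicate 1 (log2 2.26, edgeR adjusted p = 0.170), without vegetative replicate 1 (4.54, edgeR adjusted p = 0.101) and without vegetative replicate 2 (7.96, edgeR adjusted p = 0.0716), and the value was 6.29 without protoapothecia replicate 2. The gene proteinId330744 had 965 and 677 counts in sexual mycelium, 54 and 25 in protoapothecia, and 2 and 0 in vegetative mycelium. The ratio was 37.1 with a counting interval of 9.94 to 311.9 (log2 fold change 5.08 ± 0.92 SE, edgeR adjusted p = 0.00209), and the log2 value was 4.39 without protoapothecia replicate 1, 8.57 without vegetative replicate 1 and 4.10 without vegetative replicate 2.

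The other 8 genes higher in protoapothecia, named after their values were seen, were proteinId248856, proteinId398863, proteinId364011, proteinId49968, proteinId341411, proteinId317890, proteinId340458 and proteinId311070. Their ratios ran from 4.11 in proteinId311070 to 30.1 in proteinId248856, which had 18 and 14 counts in protoapothecia against 0 and 1 in vegetative mycelium. The fitted log2 fold change of proteinId248856 was 4.66, and 3.82 without vegetative replicate 1 and 7.25 without vegetative replicate 2, and that of proteinId311070 was 2.06, and 1.09 without protoapothecia replicate 1. Of these, proteinId340458 had the most counts, with 566 and 867 in protoapothecia against 85 and 122 in vegetative mycelium (6.51-fold, counting interval 5.62 to 7.56; log2 fold change 2.70 ± 0.39 SE, edgeR adjusted p = 0.000647). The calls of proteinId341411 (edgeR adjusted p = 0.0639), proteinId398863 (0.0757) and proteinId311070 (0.0691) were lost without vegetative replicate 1, and those of proteinId341411 (0.0825) and proteinId398863 (0.102) also without protoapothecia replicate 2.

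The 9 genes that were lower in protoapothecia had a median level of 1.40 TMM-scaled CPM there and of 8.50 in vegetative mycelium. The most firmly called was proteinId355483, with 2026 and 2966 counts in sexual mycelium, 11 and 15 in protoapothecia, and 169 and 197 in vegetative mycelium. The level in protoapothecia was 0.0668 of that in vegetative mycelium (counting interval 0.0430 to 0.0994; log2 fold change -3.89 ± 0.30 SE, edgeR adjusted p = 4.91e-05), and no library left out moved it by more than 1.5-fold. The gene proteinId131171 had 152 and 518 counts in protoapothecia against 1046 and 2517 in vegetative mycelium (log2 fold change -2.50 ± 0.65 SE, edgeR adjusted p = 0.0106). Without vegetative replicate 2 it did not pass (log2 -1.81, edgeR adjusted p = 0.0565), and the log2 value was -1.89 without protoapothecia replicate 1 and -3.59 without protoapothecia replicate 2.

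For proteinId352581 the counts were 2437 and 2093 in sexual mycelium, 0 and 7 in protoapothecia, and 19 and 87 in vegetative mycelium (log2 fold change -3.95 ± 1.04 SE, edgeR adjusted p = 0.0113). Both groups were wide: the log2 value was -3.00 without protoapothecia replicate 1 (edgeR adjusted p = 0.0547) and -2.56 without vegetative replicate 2 (edgeR adjusted p = 0.0648), where the call was lost, and it was -9.03 without protoapothecia replicate 2 and -4.65 without vegetative replicate 1. For proteinId234588 the counts were 528 and 541 in sexual mycelium, 3 and 18 in protoapothecia, and 43 and 53 in vegetative mycelium (log2 fold change -2.28 ± 0.63 SE, edgeR adjusted p = 0.0132; -1.53 without protoapothecia replicate 1 and -4.01 without protoapothecia replicate 2).

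The other 5 genes lower in protoapothecia, named after their values were seen, were proteinId319315, proteinId339833, proteinId354918, proteinId396379 and proteinId210836. The first had 0 counts in both protoapothecia libraries against 7 and 3 in vegetative mycelium, which sets a bound of at least 1.70-fold lower at a floor of 3 counts per library. It had 144 and 171 counts in sexual mycelium and was tested only because of them. Its fitted log2 fold change was -5.655 ± 1.46 SE (edgeR adjusted p = 0.0131), and -4.94 without vegetative replicate 1. The log2 fold changes of the others ran from -1.86 in proteinId339833 to -1.34 in proteinId210836. The call of proteinId396379, at -1.37 ± 0.41 SE (edgeR adjusted p = 0.0188), was lost without vegetative replicate 2 (log2 -0.66, edgeR adjusted p = 0.150), without protoapothecia replicate 1 (edgeR adjusted p = 0.0893) and without protoapothecia replicate 2 (edgeR adjusted p = 0.0734).

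**Figure D4:**
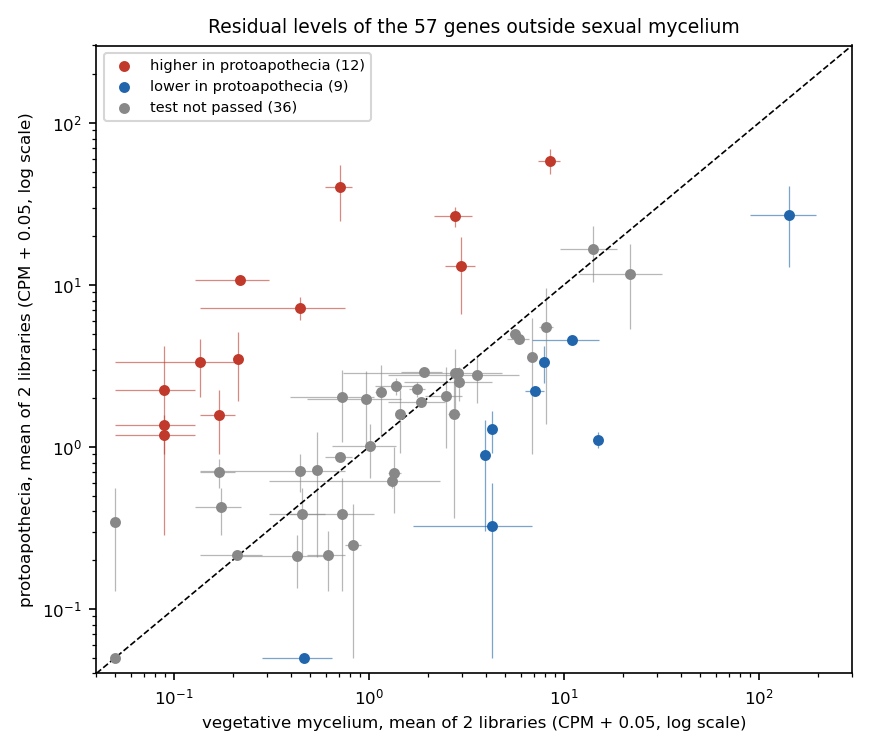
Mean level of each of the 57 genes in protoapothecia (vertical) against vegetative mycelium (horizontal), in CPM + 0.05 on log scales, with thin lines from the lower to the higher of the 2 libraries and a dashed line at equal levels. The 12 red genes were higher and the 9 blue genes lower in protoapothecia. Among these, proteinId208600 and proteinId319315 were tested only because of their sexual counts. Most of the 36 grey genes, which did not pass, lie along the dashed line below 10 CPM.

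The 36 genes that did not pass had mean levels of 0 to 18.9 TMM-scaled CPM in protoapothecia and 0 to 26.2 in vegetative mycelium. The libraries of the 2 tissues overlapped in 23 of them, proteinId297202 included, and in none of the called genes. Over all genes tested, both protoapothecia libraries were above both vegetative ones in 47.7% and below them in 41.7%. The test itself set these 36 genes apart, so nothing is read from the overlap. Except for proteinId208600 and proteinId319315, the 16 genes kept by the filter only through the sexual libraries are among these 36. Their counts were too low for a test of the 2 tissues alone, and proteinId297202, with 0 counts in all 4 libraries, could not pass. The gene proteinId61584, chosen after its values were seen, had 703 and 828 counts in sexual mycelium, 33 and 36 in protoapothecia, and 31 and 38 in vegetative mycelium, a ratio of protoapothecia to vegetative mycelium of 0.940 with an interval of 0.663 to 1.33 that covers counting error only. The longest model of the set, proteinId221563 with an mRNA of 6169 bases, had 1722 and 3069 counts in sexual mycelium, 22 and 39 in protoapothecia, and 17 and 54 in vegetative mycelium. The next longest, proteinId260145 with 2530 bases, had 62 and 226 counts in protoapothecia against 372 and 152 in vegetative mycelium, where the groups overlapped.

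The deposited gene models allowed 1 feature besides the counts to be compared, the mRNA length. The set had a median length of 959 bases with quartiles at 676 and 1547, against a median of 1230 for all models and 1500 for the 6503 models at 10 CPM or more in both sexual libraries. Models under 1000 bases made up 30 of the 57 genes (52.6%), 38.6% of all models and 24.3% of the 6503. These lengths are a description of the set. CPM is not corrected for length, so the minimum of 10 CPM can act differently on short and long models. Models that met this minimum in both sexual libraries were longer than all models by their medians, whereas the set was shorter. The cause was not tested.

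**Figure D5:**
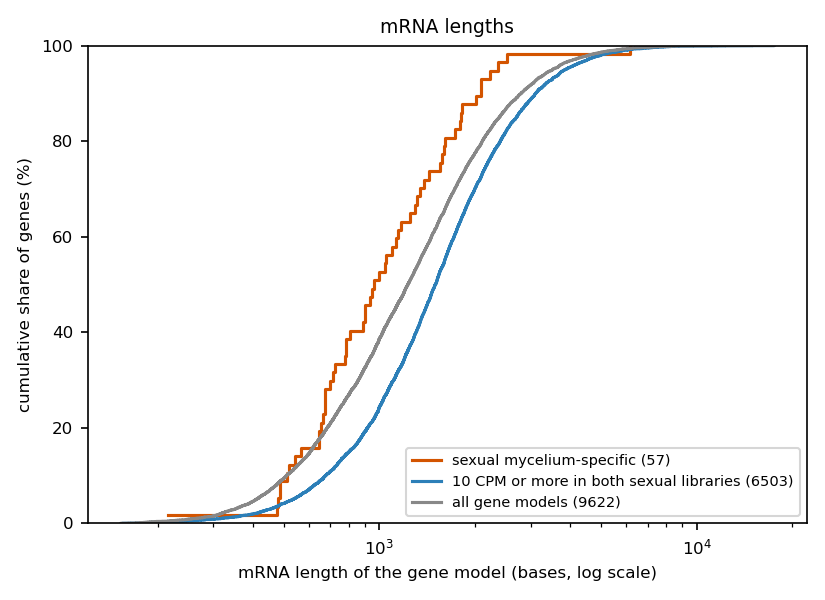
Cumulative share of gene models by mRNA length (bases, log scale) for the 57 sexual mycelium-specific genes, the 6503 models at 10 CPM or more in both sexual libraries and all 9622 models. The curve of the set lies to the left of both others from 676 bases, its lower quartile, to 2530 bases, its second longest model.

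In the authors' deposited table, the DESeq ratios of the 57 genes ran from 5.16 to 17281 for sexual over vegetative mycelium and reached at most 0.16 for protoapothecia over sexual mycelium, as the rule fixed. For protoapothecia over vegetative mycelium the authors' deposited table called 13 genes of the set higher and 9 lower, where it called 38.9% higher and 32.4% lower among all models with a value. It shared all 21 calls made by edgeR, in the same direction, and added proteinId305028, with a deposited ratio of 2.74. That gene had 12 and 37 counts in protoapothecia against 4 and 13 in vegetative mycelium, and did not pass by edgeR (adjusted p = 0.0912).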

How the data were processed

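RNA from 6 libraries in 3 groups was sequenced on an Illumina instrument, per the labels' protocols. The deposited table holds raw read counts per gene model and the mRNA length in bases, per the file headers, with aligner, counter, strand setting, genome build and annotation not given in the sources used here. Near-identical or overlapping models are therefore uncertain. It also holds the authors' DESeq ratios and adjusted p-values (rounded to 2 decimals), per the file headers; the submitters' processing notes also name DESeq.

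The members and the named-gene rule were chosen with earlier results of these data known. CPM used the total of each column. For testing, edgeR's filterByExpr kept 8861 of 9622 models, TMM factors were applied, and all 6 libraries were fitted by group with the robust quasi-likelihood test of edgeR 4.0.16 (R 4.3.3, 3 residual degrees of freedom), two-sided, Benjamini-Hochberg adjusted over all models. SE is the log2 fold change over the root of F. Ratios of pooled TMM-scaled counts carry 95% Clopper-Pearson intervals, and zeros a floor of 3 counts per library (0.234 to 0.257 CPM, on the raw scale); both cover counting error only, since amplified reads are not independent molecules. Genes were named by rank: 6 by sexual level per kilobase, 4 by ratio, the gene without counts elsewhere, 2 on each side of the threshold, up to 4 each way among calls between protoapothecia and vegetative mycelium with a mean of 20 counts, 2 each way by sexual replicate difference, and 2 each by length. Replicates differed by a chi-square of 42 to 248 per degree of freedom, so none was a duplicate. Alternatives used DESeq2 1.42.0, other scalings, filters, thresholds and libraries left out. Figures were drawn with matplotlib 3.10.9.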

Additional observations from a re-analysis of the deposited data

How the results depend on the processing

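The number of sexual mycelium-specific genes depended on the rule: against 57, it was 29 with TMM-scaled CPM and 23 with RLE-scaled CPM, 162 with a ratio of at least 5, and 25 with a ratio of at least 20. With the minimum at 5 or 20 CPM it was 64 or 49. Leaving out 1 library gave 65 to 114 genes, the most without sexual replicate 1 and 100 without sexual replicate 2; fewer conditions let more genes in by construction. The genes called between protoapothecia and vegetative mycelium were 17 to 23 of the set against 21 under 13 alternatives, and 5674 to 6807 of all genes against 6657. No called gene of the set changed direction, but 7 of the 21 calls were lost when 1 library was left out, all named above; the cause was not tested. Those fits take a lone library to vary as much as the other groups do. The median log2 fold change over all genes was 0.15 with TMM factors and -0.17 with upper-quartile factors. The replicate block gave 22 calls in the set and 6472 in all; the numbers do not pair the libraries, with correlations of deviations of -0.158 to 0.0363 between groups. DESeq2 called 23 genes of the set and 70.7% of all models. The fit of the 4 protoapothecia and vegetative libraries alone called 19 of the 41 genes of the set it could test. It called 77.6% of all genes tested. Levels under about 1 CPM rest on few counts, which limits the differences detectable there.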
